A study of Mus musculus with 16 samples.

Results

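The genes described here are the nuclear-encoded subunits of respiratory chain complexes I to IV. They were chosen by name alone, as every gene whose symbol begins with Nduf followed by a, b, c, s or v and a number, is Sdha, Sdhb, Sdhc or Sdhd, begins with Uqcr, or begins with Cox, a number from 4 to 8 and a letter. Of 79 such genes in the reference annotation, 67 had a probe on the array, and 65 of these, with 84 probes, cleared the array's background on 4 or more of the 16 arrays. They stand among 26781 genes tested. They are 37 genes of complex I, 4 of complex II, 8 of complex III and 16 of complex IV. The other two, Cox7b2 and Cox8c, were well above background on 0 arrays and were not tested. Total RNA of the dissected bladder body of untreated C57BL/6 mice was measured on Agilent arrays, 1 bladder to an array, to ask how gene expression differs with age in each sex. Mature mice (MAT) were 12 months old and aged mice (AGED) 27 to 30 months old, and 4 mice of each sex were taken at each age, which gives 4 groups of 4. An AGED group was therefore not of 1 single age.

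The respiratory chain sits in the inner membrane of the mitochondrion. Complexes I and II pass electrons from NADH and succinate to ubiquinone, complex III passes them to cytochrome c and complex IV to oxygen, and complexes I, III and IV pump the protons that drive ATP synthesis. Most subunits are encoded in the nucleus and imported, and some complex IV subunits have isoforms that differ between tissues. Smooth muscle of the bladder wall depends on this supply of ATP for contraction.

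Levels are given as the log2 processed signal of a probe less the 75th percentile of its array, so that 0 is the level of that percentile. A level compares arrays and not genes. The 75th percentile itself was highest on AGED female replicate 3, at 10.82, and lowest on AGED male replicate 1, at 9.18. On the remaining arrays it was 9.83 to 10.23. AGED male replicate 1 also had the fewest probes well above background, 52.3%, against 58.6% to 68.2%. The part of array brightness in the values below was not tested. Where several probes of a gene were kept, the brightest on average stands for it. The smooth muscle markers, 11 of 11, and the urothelial markers, 11 of 11, were measured in these bladders. Since the tissue holds many cell types, fewer cells of a type and less RNA per cell cannot be told apart. All female arrays lay on 1 slide and all male arrays on the other, and MAT and AGED arrays lay in different rows of each slide, so that sex and slide, and age and row, cannot be told apart. The signal was less even across the male arrays than across the female ones. The median deviation of the 100 spots nearest each spot had an SD over the array of 0.0549 to 0.183 in MAT males, 0.122 to 0.242 in AGED males, 0.0431 to 0.0825 in MAT females and 0.0596 to 0.0784 in AGED females, on the log2 scale.

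All directions of age follow the age that the labels give each array. For several genes that the study lists as most changed with age, among them S100a9 and Defb50, the arrays so labelled gave the opposite direction in both sexes. Whether the labels or the published list have the ages reversed was not tested, and a reversal of the labels would turn the sign of every AGED minus MAT value here.

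Of the 65 subunit genes, 0 differed between AGED and MAT mice in either sex by limma at the limit used here, 2-fold or more with an adjusted p under 0.05. Over all genes tested, 0.851% passed this limit in males and 0.19% in females. Without the fold limit the count of subunit genes was again 0 in both sexes, against 1.72% and 0.224% of all genes. With normexp on the median spot signal in place of the processed signal, 3 subunit genes passed it in males (Cox7b, Uqcr11 and Uqcrfs1) and 0 in females. The share of all genes past it with normexp is not given here, so the 3 are not read as a result. At an unadjusted limma p under 0.05 normexp gave 17 and 1, where 25.1% and 7.76% of all genes passed. With the processed signal, 2 in males (Ndufv1 and Uqcrq) and 1 in females (Uqcrb) passed limma's unadjusted p under 0.05, all higher in AGED mice. Of all genes 16.2% and 10.5% passed, and 7.86% and 4.61% passed with the higher level in AGED mice. The methods' t-test with a 2-fold limit called 0 subunit genes in either sex, against 1.85% and 1.47% of all genes.

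The median change over the 65 genes was 0.061 on the log2 scale in males, or 104.3% of the MAT level, and 0.073 in females, or 105.2%. Over all genes tested the medians were 0.0015 and -0.0063. In males 39 subunit genes had a higher mean in AGED mice and 26 a lower one, and in females 46 had a higher mean and 19 a lower one. The corresponding share of all genes with a higher mean was 50.2% in males and 49.1% in females. Single changes ran from -0.39 (Cox7a2) to 0.89 (Ndufs5) in males and from -1.81 (Cox8b) to 0.41 (Uqcrb) in females.

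The intervals bound the size of change for most subunit genes under the processing used here. They carry the spread between arrays alone, and neither the choice of background correction nor the row that goes with age. The male interval of Uqcrfs1, -0.96 to 0.25, lay within 2-fold, while its change with normexp, given below, was beyond 2-fold. The 95% interval of the change lay within 2-fold in both directions for 61 of 65 genes in males (93.8%) and 62 of 65 in females (95.4%). Over all genes tested these shares were 73.7% and 78.5%, and over genes well above background on all 16 arrays 84% and 88.7%. The intervals of Cox6a2, Cox8b and Ndufs5 reached beyond 2-fold in both sexes, and that of Ndufb2 in males. Within the narrower limit of 0.5 on the log2 scale lay 35 genes in males (53.8%, against 26.2% of all genes) and 38 in females (58.5%, against 30%).

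**Figure D1:**
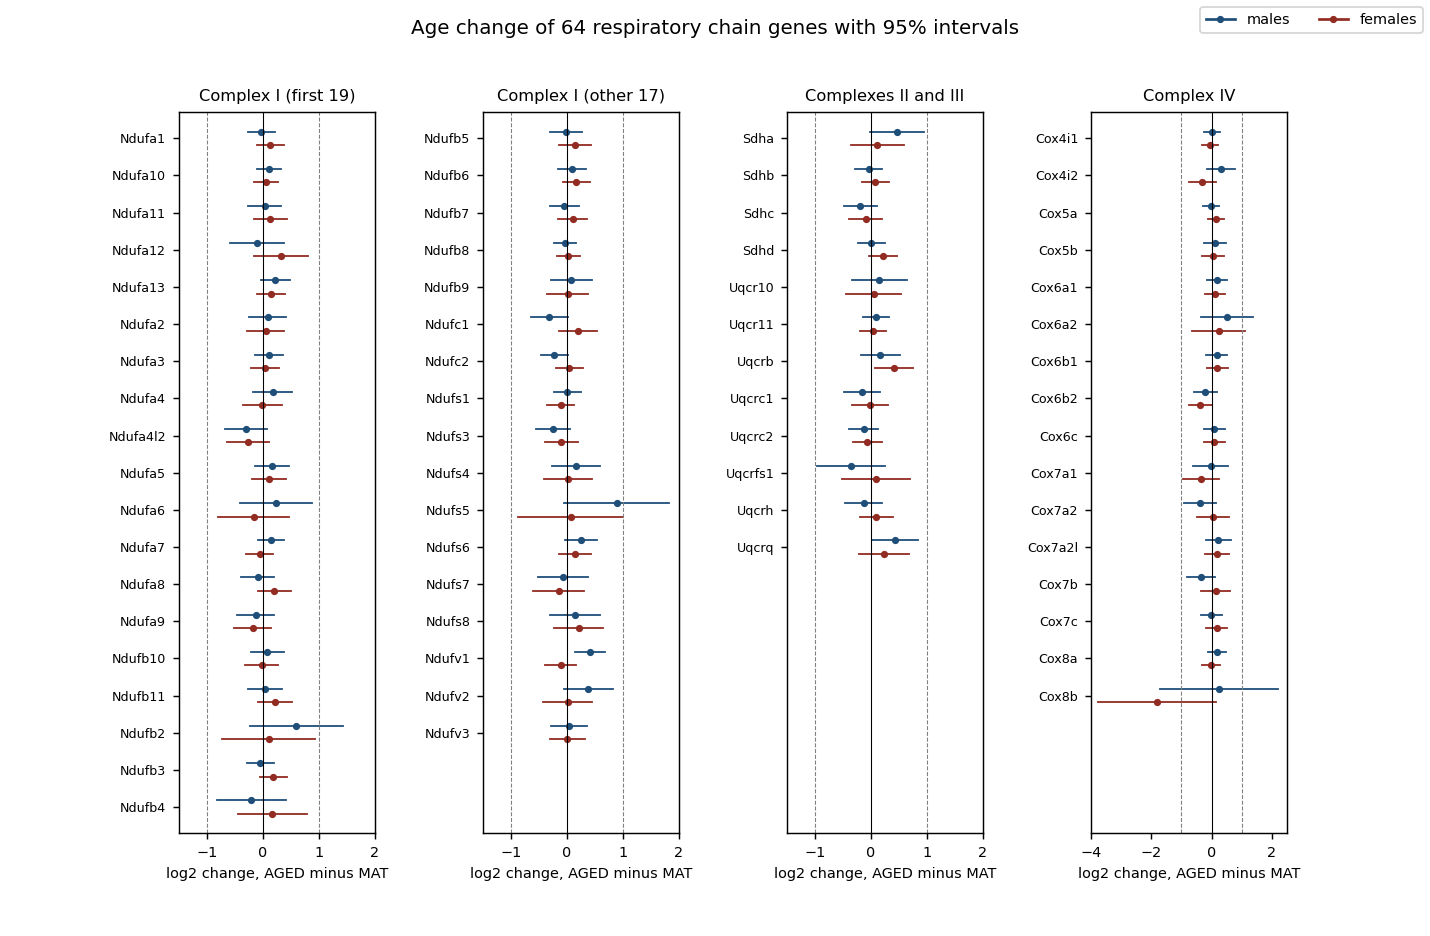
Change with age of each of 64 of the subunit genes, AGED minus MAT on the log2 scale, by complex, with males in blue and females in red. Points are limma estimates from 4 arrays per group, bars are 95% intervals, and dashed lines mark 2-fold in either direction. The panel of complex IV has a wider axis because the female change of Cox8b was -1.81, and the largest change in males was that of Ndufs5, 0.89.

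For 4 genes all AGED males lay above all MAT males without overlap, Ndufa13, Ndufv1, Sdha and Uqcrq, and for 2 genes all AGED females lay above all MAT females, Ndufb11 and Uqcrb. For 0 genes did the AGED mice of a sex lie wholly below. Over all genes, the groups did not overlap for 7.82% in males, with 3.91% higher, and for 10.8% in females, with 5.04% higher. In males the count rose to 11 genes without AGED male replicate 1, where 13.8% of all genes did not overlap, and to 9 without AGED male replicate 2, where 12.9% did not. The female count depended on AGED female replicate 3, which was the lowest of the AGED females for 33 of the 65 genes, against 28.8% of all genes. This was also the brightest array, with a 75th percentile of 10.82, and the part of brightness in its low levels was not tested. Without AGED female replicate 3 the groups did not overlap for 20 subunit genes, 17 higher and 3 lower in AGED females. Of all genes 22.8% did not overlap, 12.2% higher and 10.5% lower. The 3 lower subunit genes were Cox6b2, Cox8b and Ndufv1. Without MAT female replicate 1 the count was 6 (12.5% of all genes), and without MAT female replicate 3 or AGED female replicate 2 it was 4 (16.2% and 14.6%).

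Medians over the members of a complex showed the same narrow range. In males they were 0.061 for complex I, with 23 of 37 genes higher, -0.017 for complex II, with 2 of 4 higher, -0.016 for complex III, with 4 of 8 higher, and 0.10 for complex IV, with 10 of 16 higher. In females the medians were 0.054 with 27 genes higher, 0.099 with 3 higher, 0.067 with 6 higher and 0.073 with 10 higher. For complex I, the median of each AGED male array against the MAT male means was -0.098, 0.091, 0.17 and 0.0088, so that these arrays lay on both sides of the MAT male arrays, which ran from -0.063 to 0.055. Among AGED females replicate 3 was the lowest array for all 4 complexes, at -0.014, -0.11, -0.052 and -0.16 for complexes I to IV. The other AGED female arrays were above 0 for each complex.

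**Figure D2:**
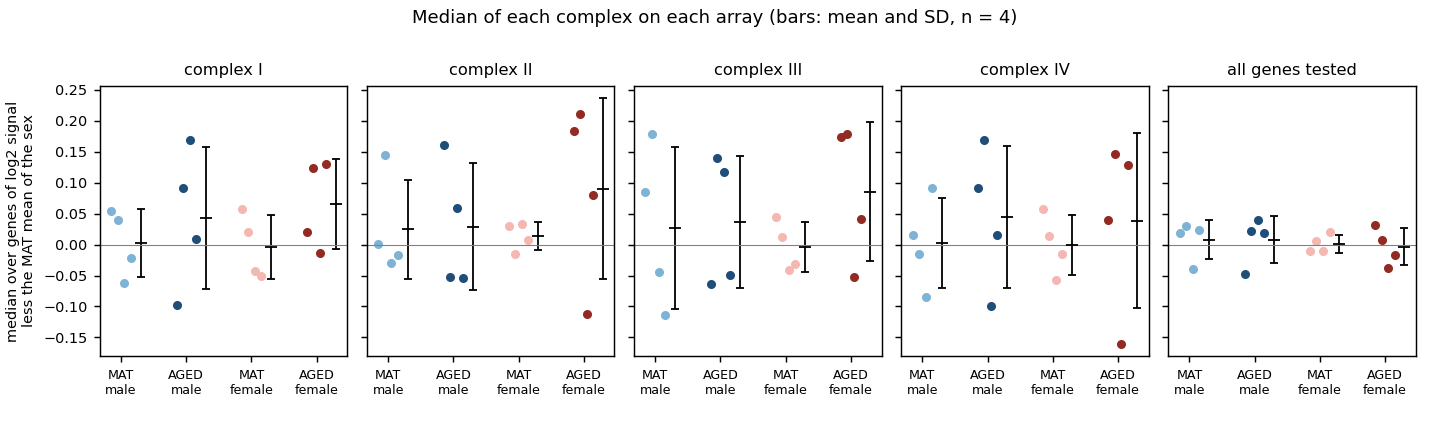
Median over the genes of each complex, and over all genes tested, for each of the 16 arrays, as log2 level less the MAT mean of the same sex. Each point is 1 array and 0 is the MAT mean. AGED female replicate 3 lies below 0 for all 4 complexes, while AGED male arrays lie on both sides of 0.

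Sequences before the transcription start are printed for 5 subunit genes that the later results return to, taken from RefSeq on build GRCm38.p6. Entries were at hand for 52 of the 65 genes, and those without one included Ndufa2, Ndufa4l2, Ndufb9, Ndufs1, Sdhc, Uqcrb, Uqcrc2, Uqcrq, Cox4i1, Cox4i2, Cox6a2 and Cox6c. Ndufb4 is the subunit gene that holds the letters searched for estrogen-related receptors, nuclear receptors that act on many respiratory chain genes. Sdha and Ndufs5 had 2 of the larger differences in males, and Cox8a and Cox8b are the ubiquitous and the muscle and brown fat isoform of 1 subunit. Each run holds 250 bases, 5′ to 3′ on the gene's own strand, which is the minus strand for all 5. Ndufb4 is at chr16:37654369-37654618, Sdha at chr13:74350241-74350490, Ndufs5 at chr4:123718187-123718436, Cox8a at chr19:7217617-7217866 and Cox8b at chr7:140900447-140900696. Capitals mark the letters of an NRF1 site, GCGCA and GCGC with 1 base of any kind between them, and TNAAGGTCA, those of an estrogen-related receptor site, searched on both strands.
Ndufb4: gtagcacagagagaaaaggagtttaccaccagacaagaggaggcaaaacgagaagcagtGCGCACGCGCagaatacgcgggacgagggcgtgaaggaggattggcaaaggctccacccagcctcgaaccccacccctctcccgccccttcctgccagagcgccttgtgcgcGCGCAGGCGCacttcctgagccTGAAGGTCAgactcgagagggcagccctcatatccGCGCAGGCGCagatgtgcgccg
Sdha: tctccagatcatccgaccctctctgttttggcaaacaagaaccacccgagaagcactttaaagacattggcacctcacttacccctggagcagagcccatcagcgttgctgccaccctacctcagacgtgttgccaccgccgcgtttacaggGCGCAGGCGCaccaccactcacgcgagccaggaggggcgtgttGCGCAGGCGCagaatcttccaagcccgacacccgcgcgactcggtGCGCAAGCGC
Ndufs5: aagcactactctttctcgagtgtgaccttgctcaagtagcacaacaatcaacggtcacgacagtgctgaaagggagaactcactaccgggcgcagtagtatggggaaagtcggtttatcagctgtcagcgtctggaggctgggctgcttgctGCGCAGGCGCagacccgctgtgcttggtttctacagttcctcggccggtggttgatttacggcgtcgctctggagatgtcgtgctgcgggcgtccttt
Cox8a: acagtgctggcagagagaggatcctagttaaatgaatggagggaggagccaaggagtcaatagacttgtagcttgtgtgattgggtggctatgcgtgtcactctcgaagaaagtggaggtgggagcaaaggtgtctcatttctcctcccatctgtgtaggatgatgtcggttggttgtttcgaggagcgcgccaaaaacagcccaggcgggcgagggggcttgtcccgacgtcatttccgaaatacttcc
Cox8b: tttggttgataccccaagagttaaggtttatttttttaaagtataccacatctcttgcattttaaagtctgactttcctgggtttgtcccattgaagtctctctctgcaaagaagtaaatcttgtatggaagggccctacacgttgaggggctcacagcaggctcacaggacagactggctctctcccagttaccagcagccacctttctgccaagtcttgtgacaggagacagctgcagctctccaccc

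The NRF1 letters were found in 9 of the 52 sequences (17.3%), those of Cox6a1, Ndufa11, Ndufa5, Ndufa8, Ndufb4, Ndufs5, Ndufs6, Sdha and Sdhd. Among all 32851 promoters of the same length 3.74% held them. CCGGAAG, the letters of a GABP site, were in 8 (15.4%, against 6.91%), those of Cox6a1, Cox6b1, Ndufb6, Ndufb7, Ndufs3, Sdhd, Uqcr11 and Uqcrh. AANATGGCG, for YY1, was in 2 (3.85%, against 1.12%), Ndufa7 and Ndufb11, and the estrogen-related receptor letters in 1 (1.92%, against 1.14%), Ndufb4. At least 1 of these 4 was present in 17 sequences. In Ndufb4 and Sdha the NRF1 letters stood 3 times each. The median GC content was 56.2%, against 52.4% over all promoters. The entries without capitals, Cox8a and Cox8b, hold none of the 4 in this window. A match describes the letters and does not show that a factor binds there.

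Complex I oxidises NADH at its matrix arm, where Ndufv1 carries the flavin that takes up the electrons. Ndufv1 stood at 5.75, 5.81, 5.60 and 5.63 in the 4 MAT males, at 6.44, 6.07, 6.13 and 5.83 in the AGED males, at 5.59, 5.62, 5.53 and 5.56 in the MAT females, and at 5.42, 5.30, 5.67 and 5.48 in the AGED females. Every AGED male was above every MAT male, while the female groups overlapped. In males the change was 0.42 on the log2 scale (SE 0.13, 95% interval 0.14 to 0.69), or 133.4% of the MAT level, with limma's unadjusted p = 0.00555 and adjusted p = 0.123. The exact two-sided permutation p of this male comparison was 0.0286, the smallest that 4 arrays against 4 allow. In females the change was -0.11 (interval -0.38 to 0.16, adjusted p = 0.832 by limma).

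The spots around the Ndufv1 probe deviated in the same direction as its male difference. Their median deviation was 0.17 to 0.27 in the AGED males and -0.071 to 0.058 in the MAT males. With this local deviation subtracted, the male change of Ndufv1 was 0.18 (limma's adjusted p = 0.474), and with normexp on the median spot signal in place of the processed signal, which drops the extraction software's own corrections, it was 0.10. The gene did not pass an adjusted p of 0.05 in males with any 1 array left out, the lowest adjusted p being 0.0551 without AGED male replicate 4.

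The largest difference in males was that of Ndufs5, an accessory subunit of complex I. It stood at 5.47, 4.54, 5.41 and 3.13 in the MAT males and at 5.98, 4.40, 5.80 and 5.95 in the AGED males. One MAT male was far below the others and the lowest AGED male lay below 3 of the MAT males, so the groups overlapped. The change was 0.89 (interval -0.04 to 1.83, adjusted p = 0.33 by limma). In females the levels ran from 5.15 to 5.25 in MAT mice and from 5.02 to 5.53 in AGED mice, a change of 0.073 (interval -0.86 to 1.01). The local deviation at this spot was -0.56 in MAT male replicate 4, -0.66 in AGED male replicate 2 and 0.70 in AGED male replicate 4, the first 2 being the lowest arrays of their groups. Less the local deviation, Ndufs5 passed an unadjusted p under 0.05 by limma in males, where 16.3% of all genes did.

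Ndufb2, an accessory subunit of the membrane arm, was the next largest in males at 0.59 (interval -0.24 to 1.43, adjusted p = 0.469). Its levels were 4.08, 3.82, 2.69 and 3.91 in the MAT males and 5.63, 4.05, 3.82 and 3.37 in the AGED males. A single AGED array was high, with a local deviation of 0.96, and a single MAT array was low. Ndufv2, the iron-sulfur partner of Ndufv1, had the same shape, with 6.05 in AGED male replicate 1, where the local deviation was 0.79, against 4.95 to 5.06 in the other AGED males. Its male change of 0.38 became 0.14 less the local deviation.

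Ndufa13 and Ndufb11, accessory subunits with no overlap between the ages in 1 sex, had small changes. Ndufa13, named after its values were seen, was at 6.91, 6.88, 6.77 and 6.70 in the MAT males and at 7.12, 6.98, 6.98 and 7.05 in the AGED males, a change of 0.22 (adjusted p = 0.378 by limma). The local deviation at its spot was 0.13 to 0.24 in the AGED males, and less this deviation the change was 0.029. Ndufb11 was at 6.01, 6.03, 5.97 and 6.00 in the MAT females and at 6.19, 6.18, 6.47 and 6.03 in the AGED females, a change of 0.21 (adjusted p = 0.644). Its groups were apart by less than the spread among the AGED females, and its second probe gave a female change of the opposite sign.

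Of the other core subunits of complex I, 4 are given here. In males and females respectively the changes were 0.0062 and -0.11 for Ndufs1, -0.25 and -0.10 for Ndufs3, -0.066 and -0.15 for Ndufs7, and 0.14 and 0.21 for Ndufs8. None of these 4 had an unadjusted p under 0.05 by limma in either sex. Ndufs3 had the lowest value of them in males (interval -0.54 to 0.05).

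Among the lower values in complex I were Ndufc1, a small accessory subunit, at -0.32 in males (adjusted p = 0.333), and Ndufa4l2, a paralogue induced at low oxygen, at -0.31 in males and -0.27 in females. Ndufa4l2 stood at 0.90, 0.90, 0.93 and 1.00 in the MAT males and at 0.15, 1.13, 0.69 and 0.54 in the AGED males, so that 3 AGED males lay below all MAT males and 1 above. Its paralogue Ndufa4, which is named with complex I but is found with complex IV, differed by 0.18 in males and -0.012 in females. Ndufa9, an accessory subunit of the matrix arm, had the lowest female change in complex I apart from Ndufa4l2, -0.18. Ndufa12, another accessory subunit, was at 0.32 in females, where MAT female replicate 4 stood at 4.54 and the other MAT females at 5.76 to 5.86.

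Complex II links the citric acid cycle to the chain, and all 4 of its subunits are encoded in the nucleus. Sdha, the flavoprotein that oxidises succinate, stood at 4.82, 3.61, 4.82 and 4.89 in the MAT males and at 5.10, 4.90, 5.09 and 4.92 in the AGED males. The AGED males lay above all MAT males, with their nearest arrays at 4.90 and 4.89, and 1 MAT male was far below the rest. The male change was 0.47 (interval -0.01 to 0.95, unadjusted p = 0.0546 and adjusted p = 0.318 by limma). In females Sdha was at 4.56, 4.57, 4.65 and 4.65 in MAT mice and at 4.93, 4.87, 4.49 and 4.62 in AGED mice, a change of 0.12 with overlapping groups.

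The iron-sulfur subunit Sdhb differed by -0.040 in males and 0.081 in females. The membrane anchor Sdhc differed by -0.19 in males and -0.091 in females, and the other anchor, Sdhd, by 0.0067 and 0.22. The female levels of Sdhd were 4.36, 4.33, 4.29 and 4.32 in MAT mice and 4.57, 4.65, 4.33 and 4.63 in AGED mice. All AGED females but 1 lay above all MAT females, with limma's unadjusted p = 0.0754 and adjusted p = 0.531.

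In complex III, which passes electrons from ubiquinol to cytochrome c, the higher values were those of 2 small subunits. Uqcrq stood at 5.65, 5.64, 5.67 and 4.74 in the MAT males and at 5.99, 5.78, 5.68 and 5.98 in the AGED males. The groups did not overlap, but their nearest arrays were 5.67 and 5.68, and 1 MAT male was low. The male change was 0.43 (interval 0.02 to 0.84, unadjusted p = 0.0422 and adjusted p = 0.287 by limma), and a second, dimmer probe gave 0.16. In females the change was 0.24, with 3 MAT values because the fourth spot carried an outlier flag.

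Uqcrb, which lies at the ubiquinone site, had the largest positive change of the 65 in females. Its levels were 5.04, 5.01, 5.01 and 4.91 in the MAT females and 5.33, 5.44, 5.29 and 5.55 in the AGED females. Every AGED female was above every MAT female. The change was 0.41 (SE 0.16, interval 0.07 to 0.76), or 133.0% of the MAT level, with limma's unadjusted p = 0.023 and adjusted p = 0.397 and an exact permutation p of 0.0286. Its 2 other probes gave female changes of 0.36 and 0.16. In males the groups overlapped, with 5.43, 5.53, 5.26 and 5.22 in MAT mice and 6.09, 5.50, 5.17 and 5.35 in AGED mice, a change of 0.17.

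The catalytic and core proteins of complex III had lower or near-equal values. Uqcrfs1, the Rieske iron-sulfur protein, stood at 4.57, 4.69, 4.65 and 3.40 in the MAT males and at 4.06, 3.40, 3.75 and 4.68 in the AGED males. Low arrays occurred in both groups, which overlapped over nearly their whole range, and the change was -0.36 (interval -0.96 to 0.25, adjusted p = 0.556 by limma). With normexp the male value was -1.42 (adjusted p = 0.0266), the only subunit gene past 2-fold and an adjusted p of 0.05 between AGED and MAT mice under any alternative. The core proteins Uqcrc1 and Uqcrc2 differed by -0.15 and -0.13 in males and by -0.014 and -0.065 in females. Uqcrh, the hinge protein, differed by -0.13 and 0.10, with 1 AGED male value left out by its outlier flag. A dimmer probe of Uqcrh gave the opposite signs, 0.11 in males and -0.12 in females.

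Complex IV reduces oxygen, and its nuclear subunits include the isoform pairs. Cox4i1, the ubiquitous form of its largest nuclear subunit, stood at 7.06, 7.19, 6.95 and 6.87 in the MAT males, at 7.30, 7.05, 6.93 and 6.81 in the AGED males, at 6.66, 6.68, 6.62 and 6.66 in the MAT females, and at 6.59, 6.81, 6.46 and 6.56 in the AGED females. The 2 age groups overlapped in each sex, and the changes were 0.0073 in males and -0.048 in females. Its isoform Cox4i2, known from lung and from cells at low oxygen, differed by 0.31 in males and -0.30 in females, also with overlapping groups. Its levels were -0.91, -0.66, -1.15 and -0.44 in the MAT males, -1.06, -0.18, -0.30 and -0.39 in the AGED males, -0.80, -0.55, -0.86 and -0.66 in the MAT females, and -1.27, -0.69, -0.76 and -1.37 in the AGED females.

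**Figure D3:**
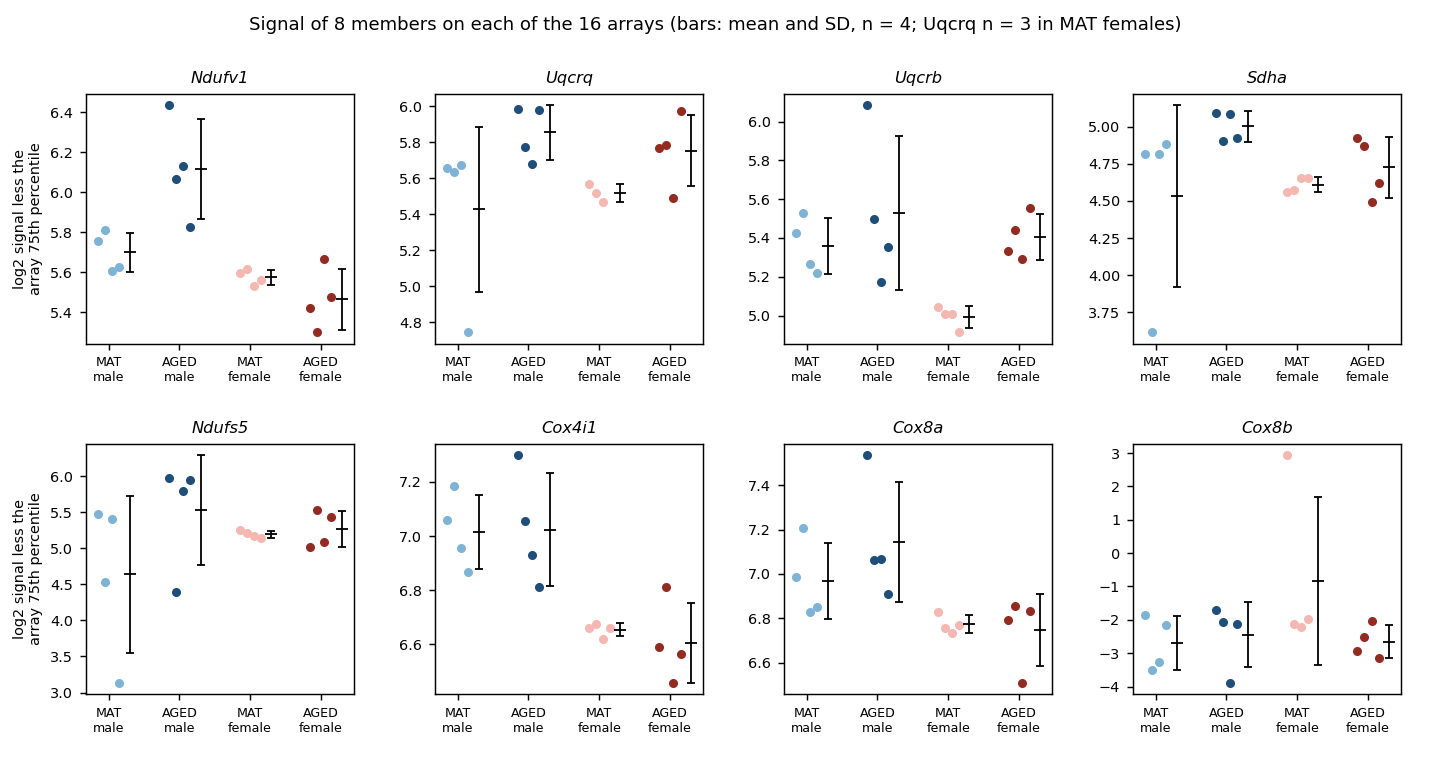
Log2 level of 8 subunit genes (Ndufv1, Uqcrq, Uqcrb, Sdha, Ndufs5, Cox4i1, Cox8a and Cox8b) on each array, by group, with the level given relative to the array's 75th percentile. Points are arrays and bars are the mean ± SD (n = 4, and n = 3 for Uqcrq in MAT females). AGED males lie above MAT males for Ndufv1, and 1 MAT female array stands at 2.93 for Cox8b, above all others.

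Cox8b, the isoform of heart, skeletal muscle and brown fat, had the largest change of all subunit genes. It stood at 2.93, -2.13, -2.21 and -1.96 in the MAT females and at -2.93, -2.50, -2.02 and -3.16 in the AGED females. MAT female replicate 1 alone was high, and the remaining MAT females overlapped with the AGED females. The female change was -1.81 (interval -3.77 to 0.15, adjusted p = 0.517 by limma), and it was -0.55 (adjusted p = 0.898) without that array. In males the levels ran from -3.50 to -1.85 in MAT mice and from -3.89 to -1.70 in AGED mice, a change of 0.25 (interval -1.71 to 2.21). The width of this male interval also carries MAT female replicate 1, since a single variance per gene was taken over all groups.

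Cox7a1, the other isoform of this list found in heart, skeletal muscle and brown fat, was high on the same array. It stood at 2.21, 0.99, 0.73 and 0.53 in the MAT females and at 0.63, 0.59, 0.89 and 0.96 in the AGED females. The female change of -0.35 became 0.020 without MAT female replicate 1, and the male change was -0.034. All 6 brown adipocyte markers tested, a list that itself holds Cox8b and Cox7a1, and all 11 adipocyte markers were highest on that array among the MAT females. Ucp1, the uncoupling protein of brown fat, was at 2.20 there and at -4.39 to -3.83 on the other MAT female arrays, and Cidea, a lipid droplet protein, was at 3.01 against -0.49 to 0.80. The summed level of the brown adipocyte list was 1.80 to 4.69 in MAT females, 1.72 to 1.87 in AGED females, 1.99 to 2.20 in MAT males and 1.93 to 2.38 in AGED males. The part of brown fat in the 2 changes was not tested. More widely, this array was the highest of the MAT females for 34 of the 64 subunit genes with all 4 values, against 20.5% of all genes.

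Cox8a, the ubiquitous isoform of the same subunit, had no such array. It stood at 6.99, 7.21, 6.83 and 6.85 in the MAT males, at 7.53, 7.06, 7.07 and 6.91 in the AGED males, at 6.83, 6.76, 6.74 and 6.77 in the MAT females, and at 6.79, 6.86, 6.51 and 6.83 in the AGED females. Its changes were 0.18 in males and -0.025 in females. The groups overlapped in both sexes.

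The other isoforms also gave small or uncertain values. Cox6a1, of liver and most tissues, differed by 0.18 in males and 0.12 in females, and its heart and skeletal muscle form Cox6a2 by 0.51 (interval -0.37 to 1.39) and 0.24. Cox6b1 differed by 0.16 and 0.20, and Cox6b2, its testis form, by -0.20 and -0.37. The female levels of Cox6b2 were 0.50, 0.45, 0.25 and 0.44 in MAT mice and -0.30, 0.24, 0.28 and -0.073 in AGED mice, and the groups overlapped at 1 MAT array (unadjusted p = 0.0598 and adjusted p = 0.497 by limma).

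Cox7a2, the counterpart of Cox7a1 in most tissues, had a male change of -0.39 (adjusted p = 0.459 by limma) and a female one of 0.051. Its AGED male replicate 4 stood at 4.00, where the local deviation was -0.52, and the other AGED males at 5.10 to 5.46. Less the local deviation the male value was -0.069. Cox7a2l, related to Cox7a2 by name, differed by 0.23 in males and 0.18 in females. Its other probes gave 0.28 and -0.19 in males and 0.039 and -0.022 in females. Cox7b was the second lowest of complex IV in males at -0.35, which became -0.41 less the local deviation, and it differed by 0.13 in females.

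Of the subunit genes, 15 had more than 1 kept probe, which gives a second look at the same transcript. The male change had opposite signs between the probes of 7 of them and the female change between those of 5. The median range between the probes of a gene was 0.27 in males and 0.11 in females. The probe not used gave larger male values for Cox8a, 0.68 (limma's unadjusted p = 0.031) against 0.18, for Ndufb4, -0.55 (unadjusted p = 0.0035) against -0.20, and for Ndufv3, an accessory subunit, 0.40 (unadjusted p = 0.0481) against 0.042. Ndufb4, whose sequence is printed above, is an accessory subunit of the membrane arm.

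The age changes of the 2 sexes were then compared with each other. Of the 65 subunit genes, 0 differed between the sexes in their age change at an adjusted p under 0.05 by limma, where 0.149% of all genes did, and 2 passed an unadjusted p under 0.05, where 9.87% did. For Ndufv1 the male change exceeded the female one by 0.53 (interval 0.14 to 0.91, unadjusted p = 0.0111, adjusted p = 0.324). For Ndufc1 the male change was lower, a difference of -0.52 (limma's unadjusted p = 0.034, adjusted p = 0.46), with -0.32 in males and 0.20 in females. The median difference over the subunit genes was 0.032, and over all genes 0.016. The interval of the difference lay within 2-fold for 52 of the 65 genes (80%, against 56.1% of all genes).

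Males were also set against females of the same age. In MAT mice 0 of 65 subunit genes were called, with or without the 2-fold limit (0.164% and 0.22% of all genes), and 7 passed limma's unadjusted p under 0.05, against 14% of all genes and 9.52% with the higher level in males. All 7 were higher in males: Ndufa11, Ndufa12, Ndufb3, Ndufc2, Sdhd, Uqcrb and Cox4i1. The smallest p among them was that of Sdhd, 0.40 higher in males (limma's unadjusted p = 0.00348, adjusted p = 0.141). The methods' t-test with 2-fold called 0 here and among AGED mice, against 2.28% and 3.73% of all genes.

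In AGED mice 0 of 65 were called at 2-fold, where 3.11% of all genes were. Without the fold limit 2 subunit genes passed an adjusted p under 0.05 by limma, where 9.51% of all genes did. This count was 15 with normexp and 7 without AGED male replicate 1, and 1 or 2 with any other array left out. Calls over all genes rose too at an unadjusted p, and their share at an adjusted p is not given here for these settings. The 15 and 7 are therefore not read as a result about the subunit genes. At limma's unadjusted p under 0.05, 43.9% of all genes passed with normexp and 31.6% without AGED male replicate 1, against 26.2% otherwise. Among AGED mice Ndufv1 was 0.65 higher in the males (SE 0.13, interval 0.38 to 0.92, adjusted p = 0.00809), or 156.8% of the female level, and every AGED male stood above every AGED female. Cox4i1 was 0.42 higher (SE 0.12, adjusted p = 0.0458), or 133.6%, where the groups just overlapped, the lowest male and the highest female both standing at 6.81. Less the local deviation, the difference was 0.38 for Ndufv1 (adjusted p = 0.0499) and 0.57 for Cox4i1 (adjusted p = 0.0424). With quantile normalization that of Cox4i1 was 0.16 (adjusted p = 0.378), with normexp that of Ndufv1 was 0.39 (adjusted p = 0.0565), and leaving out 1 array took the adjusted p of Cox4i1 from 0.0318 to 0.113.

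Between the sexes in AGED mice, 8 subunit genes passed limma's unadjusted p under 0.05, against 26.2% of all genes and 16.8% with the higher level in males. Besides Ndufv1 and Cox4i1 they were Ndufa7, Ndufa10, Ndufa13, Ndufs6, Cox4i2 and Cox8a, all higher in males. Over all 65 the median was 0.15 higher in males among MAT mice, with 51 genes higher, and 0.14 among AGED mice, with 50 higher. Over all genes these medians were 0.078 and 0.087, and 61.3% and 59.3% of the genes were higher in males. Slide and sex cannot be told apart in these values.

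Markers of several cell types also differed between the sexes. In MAT mice all 11 urothelial genes were higher in males, with a median of 0.43 and 7 at an unadjusted limma p under 0.05. The adipocyte list had a median of -2.97 in males minus females (9 of 11 lower), the T cell list -1.28 (8 of 8 lower) and the B and plasma cell list -3.22 (6 of 6 lower). Smooth muscle had a median of 0.19, and 0 genes of these 5 lists were called. In AGED mice the medians were 0.11 for urothelium, -2.60 for adipocytes, -0.066 for T cells, -1.10 for B and plasma cells and 0.21 for smooth muscle, again with 0 called. Other lists did hold calls in AGED mice. Of 8 fibroblast genes 7 were lower in males (median -0.43) and 1 was called, and 1 of 2 male accessory gland genes was called higher. The part of these markers in the subunit values was not tested.

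Spread among the 4 mice of a group differed between the groups. The model took a single variance per gene over all 4 groups, so a gene's interval has the same width in both sexes unless a value is missing. The median SD of a subunit gene was 0.143 in MAT males, 0.260 in AGED males, 0.0699 in MAT females and 0.168 in AGED females. For genes well above background on all arrays it was 0.197, 0.313, 0.126 and 0.208. In both sets AGED mice had the larger median SD in each sex, and males in each age group. An SD over 0.5 occurred for 6, 9, 3 and 3 subunit genes in the 4 groups.

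Unevenness within arrays was set beside this spread. A local deviation of over 0.25 in size was present at the spots of 1, 19, 0 and 8 subunit genes on the 4 MAT male arrays and of 19, 7, 8 and 11 on the AGED male arrays, but at 0 on all female arrays. With the local deviation subtracted, the median SD was 0.0947 in MAT males, 0.188 in AGED males, 0.0729 in MAT females and 0.149 in AGED females. AGED mice thus still had the larger median SD in each sex, and that of MAT females did not fall from its 0.0699. The part of unevenness in the spread was not tested. The count of subunit genes called between AGED and MAT mice was again 0 in both sexes after this step. At an unadjusted p under 0.05 it was 6 in males (16.3% of all genes), Ndufa3, Ndufa4l2, Ndufb11, Ndufs5, Sdha and Cox7b, and 3 in females (12.4%), Ndufb11, Ndufb6 and Uqcrb. Ndufv1 and Uqcrq were no longer among the male ones, and Uqcrb was again among the female ones.

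**Figure D4:**
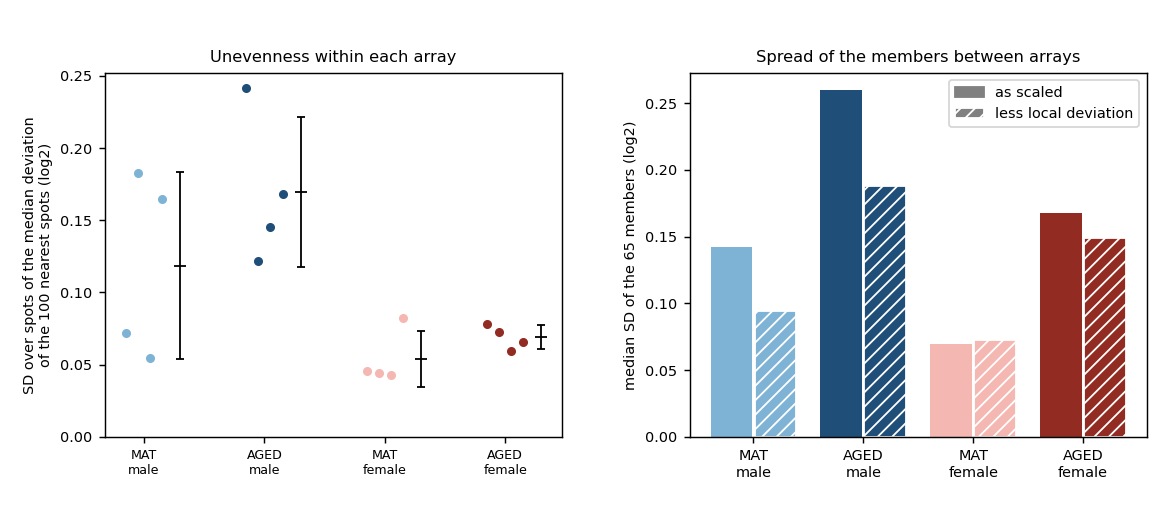
Unevenness within each array, and the spread of the subunit genes. One panel gives the SD over an array of the median log2 deviation of the 100 spots nearest each spot, 1 point per array with bars for the mean ± SD (n = 4), and the other the median SD of the 65 genes in each group as scaled and less the local deviation. The AGED male arrays reach 0.242, and the median SD of AGED males goes from 0.260 to 0.188.

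Regulators of mitochondrial gene expression were measured beside their targets, 21 of them. In males 1 passed an adjusted p under 0.05 by limma, without reaching 2-fold, and in females 0 did. That gene was Esrra, a nuclear receptor that acts on respiratory chain genes together with the coactivator Ppargc1a. Esrra stood at 4.14, 4.22, 4.26 and 4.26 in the MAT males and at 3.74, 3.18, 3.40 and 3.22 in the AGED males. Every AGED male was below every MAT male. Esrra fell by 0.83 on the log2 scale (SE 0.15, adjusted p = 0.0109), a 1.78-fold lower level.

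In females Esrra stood at 3.90, 3.99, 3.90 and 4.12 in MAT mice and at 4.15, 4.40, 4.10 and 3.76 in AGED mice, a change of 0.13 (adjusted p = 0.831) with overlapping groups. The difference between the 2 age changes was -0.96 (adjusted p = 0.0884), which did not pass. In AGED mice Esrra was lower in males than in females by 0.72 (adjusted p = 0.00916). The male fall held with quantile normalization (adjusted p = 0.00987), median scaling (0.00545), normexp (2.46e-05) and less the local deviation (0.00886), and with each array left out (0.00275 to 0.039). Only 1 probe of Esrra was kept.

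Ppargc1a stood at 1.10, 0.71, 0.59 and 1.13 in the MAT males and at -0.13, 0.31, -0.12 and 0.36 in the AGED males. The groups did not overlap, and the change was -0.78 (unadjusted p = 0.00259, adjusted p = 0.0868 by limma), while a second and dimmer probe gave 0.032. With normexp the change was -1.41 (adjusted p = 0.000811), and without AGED female replicate 4 the adjusted p of -0.78 was 0.0394. In females the levels were 1.00, 0.77, 0.60 and 1.13 in MAT mice and 0.57, 0.70, 0.79 and -0.16 in AGED mice, a change of -0.40 (adjusted p = 0.548). Nrf1, the factor whose letters are marked in the printed sequences, had a male change of 0.37 (adjusted p = 0.16 by limma) and a female one of -0.11. Over the 21 regulators the change ran from -0.83 to 0.41 in males and from -0.40 to 0.48 in females, with medians of -0.11 and 0.039. Beside the fall of Esrra in males, the median change of the 65 subunit genes in the same mice was 0.061. The change of Ndufb4, whose sequence holds the receptor's letters, was -0.20 (interval -0.82 to 0.41). Its second probe gave -0.55 in males (limma's unadjusted p = 0.0035). A link between these values and the fall of Esrra was not tested.

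**Figure D5:**
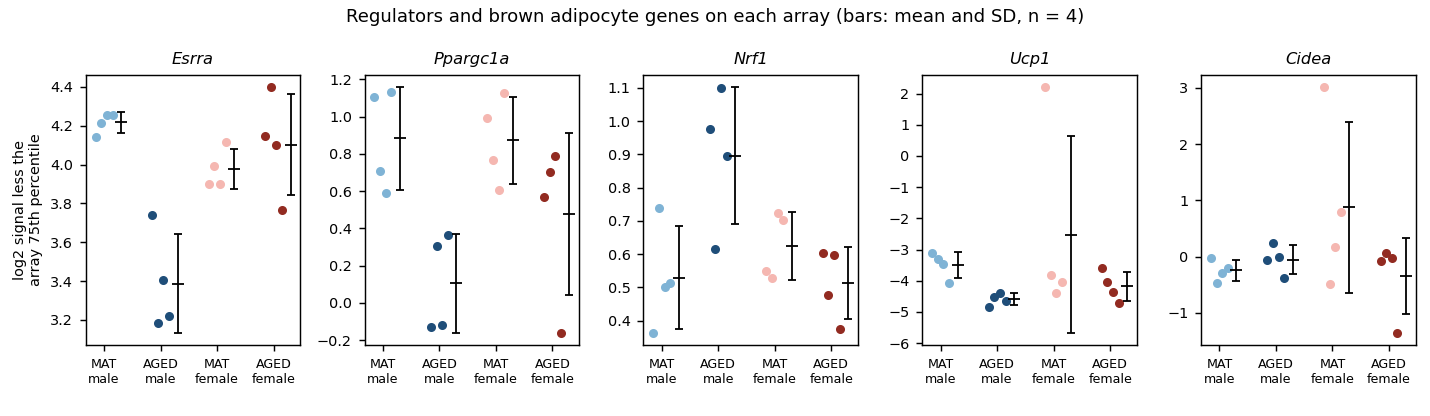
Log2 level of Esrra, Ppargc1a, Nrf1, Ucp1 and Cidea on each array, by group, relative to the array's 75th percentile. Points are arrays and bars are the mean ± SD (n = 4). The AGED males lie below the MAT males for Esrra and Ppargc1a, and MAT female replicate 1 stands apart for Ucp1, at 2.20.

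Genes that work next to the chain were described from lists. Complex V, the ATP synthase, had 18 genes tested and 0 called in either sex. Its median change was -0.022 in males, with 8 genes higher, and 0.11 in females, with 16 higher, and the smallest p values belonged to Atpif1, its inhibitor, in males (-0.32, adjusted p = 0.189) and Atp5mpl, a small subunit, in females (0.32, adjusted p = 0.43). Of 3 chain components that the naming rule leaves out, Cycs, cytochrome c, was at 0.60 in males (adjusted p = 0.17) and Ndufab1, the acyl carrier subunit of complex I, at 0.44 in females (adjusted p = 0.288). The mitochondrially encoded subunits, 14 genes, were not matched to any probe and were not analysed here.

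Assembly factors, which build the complexes without remaining in them, gave 1 gene of 44 past an adjusted p of 0.05 in males and 0 in females. Cox16, an assembly factor of complex IV, rose by 0.69 (SE 0.16, adjusted p = 0.044 by limma), although its groups overlapped, with 3.90, 3.60, 3.45 and 3.41 in the MAT males and 4.15, 3.85, 4.59 and 4.55 in the AGED males. Its adjusted p was 0.096 with median scaling, 0.33 with normexp and up to 0.127 with 1 array left out. Higd1a, a factor that acts on complexes III and IV, had the smallest p in females, at 0.36 (adjusted p = 0.386). The medians of the list were -0.060 in males and 0.060 in females. In the citric acid cycle 0 of 16 genes passed an unadjusted p under 0.05 in either sex, with medians of 0.011 and 0.017, and its nearest were Cs, citrate synthase, in males at 0.18 and Mdh2, the mitochondrial malate dehydrogenase, in females at 0.21.

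Markers of other cell types that the bladder could hold were higher in AGED males for 2 of 5 neutrophil genes tested, among them S100a9, a granule protein, at 3.08 (adjusted p = 0.0125 by limma), and for 1 of 2 male accessory gland genes tested, Defb50, a defensin, at 3.32 (adjusted p = 0.00385). The other accessory gland gene tested was at -0.28 in males, and 2 of the 9 genes of that list were tested. Among females S100a9 was at 1.62 (limma's unadjusted p = 0.0106, adjusted p = 0.323) and Defb50 at 1.80 (unadjusted p = 0.00224, adjusted p = 0.185). The summed level of the neutrophil list was 6.56 to 6.69 in MAT males and 6.54 to 6.86 in AGED males, and that of the accessory gland genes -4.32 to -4.11 and -3.34 to -0.56. The directions of S100a9 and Defb50 follow the labels and are the reverse of those the study lists. In the 13 other marker lists 0 of 109 genes were called in males by limma, with 14 at an unadjusted p under 0.05 and list medians from -0.46 (fibroblast) to 0.90 (T cell). In females 0 of the 116 genes of all 15 lists were called, with 17 at an unadjusted p under 0.05 and medians from -0.88 (B and plasma cell) to 1.29 (neutrophil). Smooth muscle markers had a median change of 0.042 in males and 0.037 in females, with 0 of 11 called in either sex. The part of these shifts in the subunit values was not tested.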

How the data were processed

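Total RNA was labelled and hybridized to 1-colour Agilent arrays, 1 bladder on each of 16. The authors deposited the spot intensity after background subtraction by Feature Extraction (version 10.7.3.1 in the file headers, 9.1 in the submitters' processing notes) and a table of log2 values centred on each probe, which was used as an alternative. From the processed intensity, log2 values were taken, the 75th percentile of an array was subtracted, control spots and 399 probe values with an outlier flag were left out, and replicate spots were averaged. Of 55681 probes, 26582 were named through RefSeq accessions (GRCm38.p6, names alone), and 36972 cleared background on 4 or more arrays. A group-means model over all arrays (12 residual degrees of freedom) was fitted with limma 3.58.1 under R 4.3.3, with Benjamini-Hochberg adjustment over 26781 genes and calls at 2-fold or more and an adjusted p under 0.05. Intervals are at 95%, and the number of arrays, 4 per group, limits the precision.

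The local deviation of a spot is the median deviation of its 100 nearest spots. Subtracting it was an alternative chosen after seeing the data. The procedure was tested on simulated data. Members and gene lists were chosen with earlier results of these data known. Besides all members by counts and ranges, the named ones are the 2 largest rises and falls per complex and sex, all of complex II, isoform pairs and core subunits. The rule also took the smallest p of each related list. It took members whose probes differ in sign only where either had an unadjusted limma p under 0.05. The values of 1 member are not reported here, though it is in the counts and medians. The marker lists are smooth muscle, urothelium, skeletal muscle, adipocyte, brown adipocyte, macrophage, T cell, B and plasma cell, neutrophil, fibroblast, endothelium, peripheral nerve, male accessory gland, uterus and oviduct, and blood. Alternatives covered scaling, background correction, filters on dim probes, a floor, probe choice, outlier flags, array weights, a variance trend, the replicate block, each sex alone, other call rules, the methods' t-test and leaving out each array.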

Additional observations from a re-analysis of the deposited data

Results flagged for a closer look

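A single array stood apart from the other 3 of its group, with a gap to the nearest value above Dixon's 95% critical value, in 25 of 258 tests of a subunit gene in a group, or 9.69%, where chance alone gives about 1 in 20 groups. The values, given as log2 levels, lay low in 19 cases and high in 6, and 13 were on male arrays. In 8 cases the nearest spots deviated in the same direction by over 0.25.

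In MAT males, replicate 2 stood apart for Ndufb7 (5.8), Ndufc2 (5.64), Sdha (3.61), Cox5b (5.01) and Cox6b1 (2.37). Replicate 4 of that group stood apart for Ndufa6 (3.23), Uqcrfs1 (3.4) and Uqcrq (4.74). In AGED males, replicate 1 did so for Ndufs7 (5.41) and Ndufv2 (6.05), replicate 2 for Ndufs5 (4.4), and replicate 4 for Ndufb6 (4.33) and Uqcr10 (5.27). In MAT females, replicate 4 stood apart for Ndufa12 (4.54), Sdhb (5.22) and Cox6b1 (2.23), replicate 2 for Sdhc (4.34), and replicate 1 for Cox8b (2.93). In AGED females, replicate 3 did so for Ndufc1 (5.03), Sdhb (5.26), Cox5a (5.74) and Cox6a1 (7.2), all low. Replicate 2 of that group stood apart for Ndufa6 (3.03), and replicate 4 for Ndufa2 (6.03) and Cox7c (4.87).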

How the results depend on the processing

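The count of subunit genes called was 0 in both sexes under every alternative run except limma without adjustment or a fold limit and normexp, which called 1 in males (Uqcrfs1, -1.42) and 1 between AGED males and AGED females. Leaving out each array gave 0 to 0 in all comparisons. Without the fold limit 2 genes passed between AGED males and AGED females (1 to 7 with 1 array left out, 7 without AGED male replicate 1, and 15 with normexp), and 0 in males (3 with normexp). Shares of all genes at an adjusted p are not given here for normexp or with 1 array left out. Unadjusted limma gave 2 in males (1 to 6 with 1 array left out, 17 with normexp), 1 in females (0 to 4, and 1 with normexp), 2 for the difference of the age changes (1 to 5, and 5), 7 between the MAT sexes (4 to 11, and 10) and 8 between the AGED sexes (5 to 13, and 23). The shares of all genes with normexp were 25.1%, 7.76%, 13.5%, 15.6% and 43.9% for these comparisons in turn. Genes with groups that did not overlap numbered 15 in males under normexp, where the share of all genes is not given here. With 1 array left out they numbered 4 to 11 in males, among 10.1% to 13.8% of all genes. In females they numbered 1 in the authors' table, 1 with the mean of kept probes and 4 less the local deviation. With 1 array left out the female count was 2 to 20, among 12.5% to 22.8% of all genes. The male median of complex II was 0.11 under normexp and 0.10 less the local deviation, and that of complex III 0.30 under normexp and 0.11 with probes well above background on all 16 arrays. With 1 array left out the medians of complexes I to IV ran from 0.023 to 0.068, -0.058 to 0.035, -0.046 to 0.026 and 0.0078 to 0.16 in males, and from 0.037 to 0.11, 0.060 to 0.17, 0.043 to 0.12 and 0.0036 to 0.16 in females. The causes of these shifts were not tested.

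The values of single genes under an alternative numbered 2380. They include settings that cannot move a change, such as a variance trend, each sex alone and leaving out an array of the other sex. The share that changed sign is therefore no measure of stability. Of the 2380 values, 71 changed sign, all from a change of at most 0.35 in size. In males these were, with array weights, Cox4i1 -0.015, Cox6b2 0.056, Cox7a1 0.029, Ndufs7 0.063, Sdhb 0.011 and Sdhd -0.073. Less the local deviation they were Cox8a -0.0030, Ndufa12 0.0067, Ndufs1 -0.13 and Sdhb 0.072. With median scaling they were Cox4i1 -0.055, Ndufb11 -0.026, Ndufs1 -0.056 and Sdhd -0.056, and with quantile normalization Cox4i1 -0.094, Ndufb11 -0.0032, Ndufs1 -0.0074 and Sdhd -0.0068. With normexp they were Cox6b2 0.035, Cox7a1 0.026, Cox7a2l -0.18, Ndufa12 0.28, Ndufa9 0.094, Ndufs7 0.11, Ndufs8 -0.16, Sdhb 0.11 and Uqcrc1 0.32. In females they were Uqcrc1 0.0085 with array weights, Cox7a2 -0.030 less the local deviation, Ndufv2 -0.0055 with median scaling, Ndufs5 -0.034, Ndufv2 -0.036 and Uqcrc1 0.13 with normexp, and Cox7a2 -0.035, Ndufs5 -0.0019 and Ndufv2 -0.059 with quantile normalization. With 1 array left out the male ranges that crossed 0 were -0.021 to 0.73 for Cox8b, -0.098 to 0.023 for Sdhb, -0.084 to 0.078 for Cox4i1, -0.078 to 0.077 for Sdhd, -0.018 to 0.27 for Ndufa4, -0.044 to 0.041 for Ndufs1, -0.21 to 0.14 for Ndufs7, -0.080 to 0.29 for Ndufs8, -0.23 to 0.020 for Ndufa9, -0.018 to 0.29 for Uqcrb, -0.085 to 0.13 for Ndufb11 and -0.094 to 0.091 for Cox7a1. The female ones were -0.54 to 0.020 for Cox7a1, -0.060 to 0.050 for Ndufa4, -0.044 to 0.043 for Ndufv2, -0.071 to 0.072 for Uqcrc1, -0.054 to 0.21 for Cox7a2, -0.0099 to 0.15 for Uqcrfs1, -0.014 to 0.15 for Ndufs5, -0.12 to 0.0016 for Cox4i1, -0.061 to 0.054 for Cox8a and -0.13 to 0.0036 for Uqcrc2.

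With the replicate number as a block 0 subunit genes were called in each comparison and the complex medians were unchanged, at 0.061 for complex I in males. Each number occurs in every group, so this block leaves a difference of group means as it is where no value is missing. Arrays of the same number correlated at -0.15 to 0.066 and 2 of 8 were closest to their own number, so the numbers were not shown to pair the mice. The slide as a block could not be fitted, since slide and sex coincide, and naming probes by the files' own gene names was not run. For 63 subunit genes all 16 spots were well above background, and Uqcrh and Uqcrq lack 1 value each.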

Other observations

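Glycolysis, the pathway that yields ATP without the respiratory chain, had 0 of 18 genes called between AGED and MAT mice in either sex by limma, with medians of 0.015 in males and 0.036 in females on the log2 scale. At an unadjusted p under 0.05 it had 1 gene higher and 1 lower in each sex. The smallest p in males was that of Hk2, a hexokinase, at -0.89 (adjusted p = 0.114), and in females that of Pfkm, a phosphofructokinase subunit, at -0.41 (adjusted p = 0.30). Between AGED males and AGED females 2 of the 18 genes were called, 1 higher and 1 lower in males, against 3.11% of all genes.

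The mitochondrial ribosome, which translates the mitochondrially encoded subunits, had 0 of 77 genes called in either sex, with medians of 0.074 in males and 0.052 in females. The largest male value was that of Mrps17, a protein of its small subunit, at 1.19 (adjusted p = 0.145), and the smallest female p that of Mrpl12, a protein of its large subunit, at 0.33 (adjusted p = 0.244).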
